A study of Mus musculus with 6 samples.

Results

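Oxidative phosphorylation genes of both genomes were examined in the cerebral cortex of F2 mice whose grandsires had received methylphenidate or saline. The set held 100 of the 33274 gene rows. It comprised 87 protein-coding nuclear genes with symbols beginning Nduf (letters a, b, c, s or v and a digit), Uqcr, Cox followed by 4 to 8, or Atp5, together with Sdha to Sdhd and Cyc1, and 13 mitochondrially encoded genes with symbols of the mt-Nd, mt-Co, mt-Cytb or mt-Atp series. Ndufa4 and Ndufa4l2 carry complex I names and were placed with complex IV, where the Ndufa4 protein is now assigned. By complex, the nuclear genes numbered 38 for complex I, 4 for complex II, 9 for complex III, 19 for complex IV and 17 for complex V, and the mitochondrial genes numbered 7, 0, 1, 3 and 2.

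The methylphenidate lineage comprised 3 libraries from female wild-type ICR mice, an outbred strain, at 6 weeks of age, whose grandsires (F0, 6 weeks old at the start) had received methylphenidate at 15 mg/kg subcutaneously each day for 21 days. The saline lineage comprised 3 libraries from mice of the same sex, strain, genotype and age whose grandsires had received saline at 10 mL/kg on the same schedule. In both lineages the F0 males were mated with females given no drug, and 1 F1 male from each litter was mated again with an untreated female, so the F2 mice were themselves untreated. Methylphenidate blocks the reuptake of dopamine and noradrenaline, and the study asked whether its intake by a male mouse shows in the brains of grandoffspring. The labels do not state which F2 mice shared a litter, an F1 sire or a grandsire, and p-values therefore measure only the spread between these samples.

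Oxidative phosphorylation takes place in the inner mitochondrial membrane. Complex I (NADH dehydrogenase) and complex II (succinate dehydrogenase) pass electrons to ubiquinone, complex III (cytochrome bc1) passes them to cytochrome c, and complex IV (cytochrome c oxidase) passes them to oxygen, while complexes I, III and IV pump protons that drive complex V (ATP synthase). Every complex except complex II is a mosaic of subunits encoded in the nucleus and subunits encoded in the circular mitochondrial genome, which is transcribed from both strands as long precursors and cut into separate RNAs. Neurons depend on this pathway for most of their ATP.

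Total counts per library were 23896752 to 28120640 in the methylphenidate lineage and 24000528 to 26914606 in the saline lineage, so that 3 counts, the limit which a count of 0 allows for counting error only, corresponded to 0.107 to 0.126 CPM. Markers of cortical neurons were high in each library, and their summed level was 4554, 4759.6 and 5149 CPM in the methylphenidate lineage and 4891, 4612 and 4710.1 CPM in the saline lineage. Summed markers of striatal neurons, an adjoining region, were 519, 283 and 656 CPM in the methylphenidate lineage and 297, 244 and 219 CPM in the saline lineage. Summed markers of the choroid plexus, the epithelium of the brain ventricles, were 492, 196 and 20.98 CPM in the methylphenidate lineage and 40.7, 638 and 410.2 CPM in the saline lineage. Each of the 8 striatal and 5 choroid plexus markers was detected, and none was at 0 in all libraries. Fewer cells of a type and less RNA per cell cannot be told apart in these bulk samples.

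No oxidative phosphorylation gene of either genome differed between the lineages past the threshold. Of the 100 members, 99 passed the filter on low counts, and 0 of 99 had an edgeR adjusted p under 0.05, where 0.0273% of all 18327 genes tested did. The smallest adjusted p among them was 0.606, for Cox5b. DESeq2 also called 0 of 99 members, with 0.824% of all genes called, and limma-voom called 0 of 99, with 0.0273% of all genes called. At an unadjusted p under 0.05, edgeR had 2 members (2.02%), against 7.51% of all genes. Every methylphenidate library lay above every saline library for 3 members (3.03%, against 6.97% of all genes), and below every saline library for 8 members (8.08%, against 6.51%).

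Fold changes were small in both genomes. The median log2 fold change, methylphenidate lineage over saline lineage, was -0.0091 over the 86 nuclear members tested, with 38 above and 48 below 0. It was -0.0026 over the 13 mitochondrial members, with 6 above and 7 below 0. Over all genes tested the median was 0.0008, and 49.7% lay below 0. These splits rested on single libraries. Without replicate 2 of the methylphenidate lineage 48 nuclear members were above and 38 below 0, and without replicate 3 of the saline lineage 47 were above and 39 below. Of the mitochondrial members, 13 of 13 were above 0 without replicate 2 of the methylphenidate lineage or without replicate 1 of the saline lineage, and 13 of 13 were below 0 without replicate 3 of the methylphenidate lineage or without replicate 2 of the saline lineage.

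Among nuclear members 82 of 86 had a log2 fold change smaller than 0.2 in size, and so had 13 of 13 mitochondrial members. The 4 nuclear members beyond 0.2 were Ndufa1 (-0.21, SE 0.13), which encodes a membrane-arm subunit of complex I, and the low-count isoform genes Cox6b2, Cox7b2 and Ndufa4l2 described further on. Ndufa1 was named after its values were seen. The median standard error was 0.0789 for nuclear members and 0.12 for mitochondrial members, against 0.15 over all genes.

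**Figure D1:**
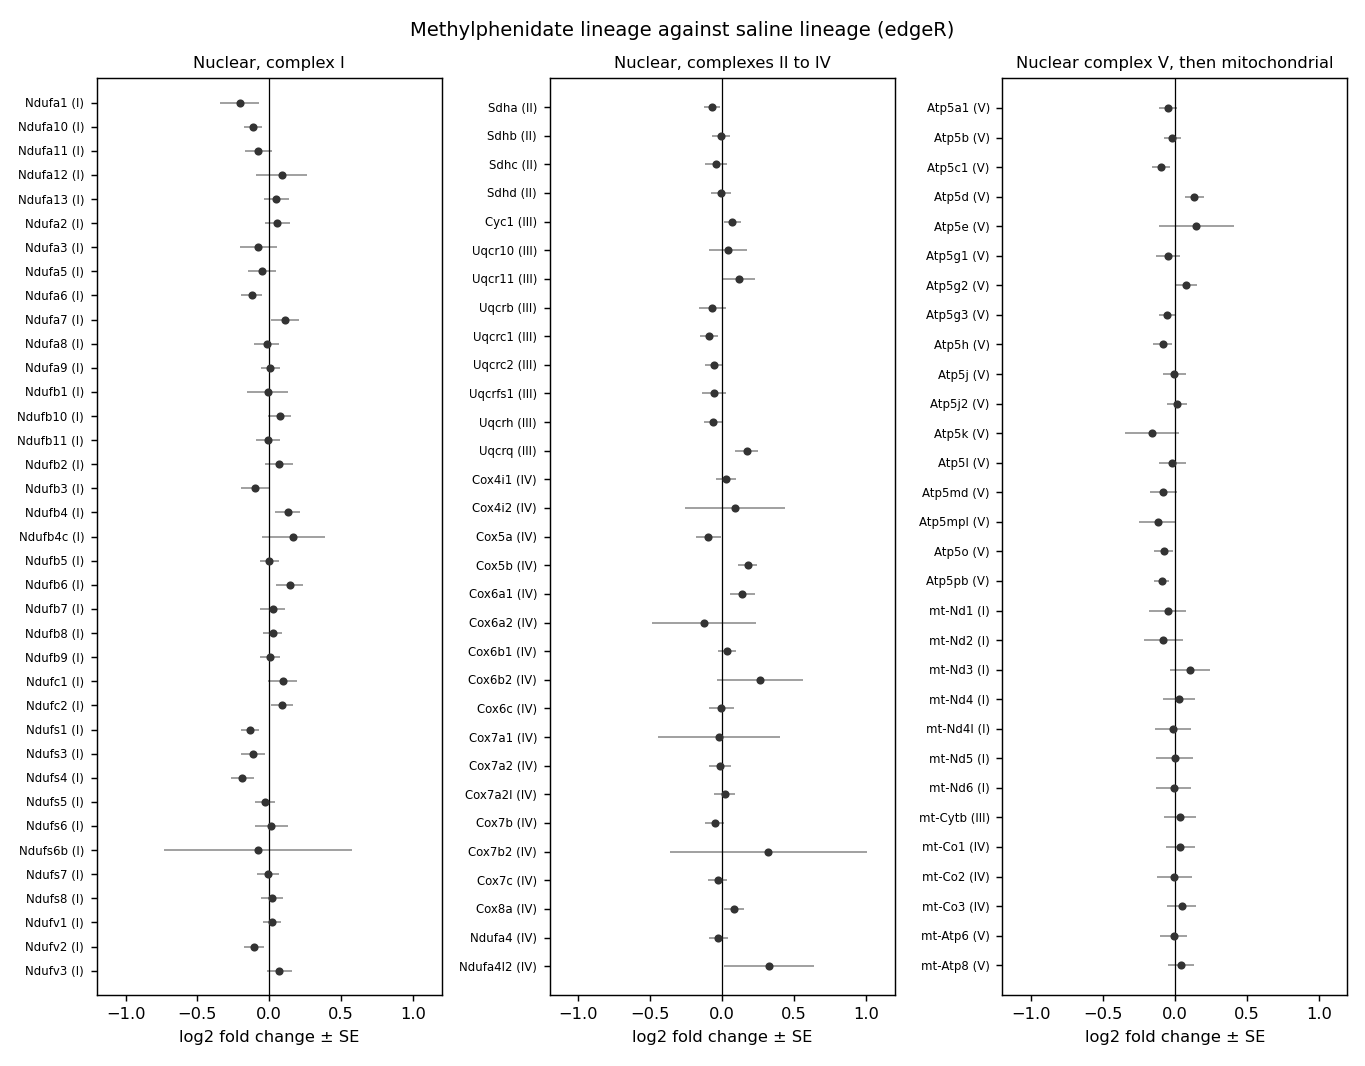
Log2 fold change (methylphenidate lineage over saline lineage, edgeR) with its standard error for all but 1 of the 99 members tested, with the complex in brackets, nuclear genes by complex and mitochondrial genes last. The points lie close to 0, the widest bars belong to low-count genes such as Cox7b2 and Ndufs6b, and none of them passed the threshold.

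The mitochondrial genome supplies the core of the proton pumps. Of its 13 genes, mt-Nd1 to mt-Nd6 with mt-Nd4l encode the membrane core of complex I, mt-Cytb encodes cytochrome b of complex III, mt-Co1 to mt-Co3 encode the catalytic core of complex IV, and mt-Atp6 and mt-Atp8 encode membrane subunits of complex V. The genes are packed so closely that a pair of messenger RNAs each carry overlapping reading frames. These overlaps are shown because each joins 2 members whose reads cannot be fully separated. They are not the only overlaps. Base 8607 belongs to both mt-Atp6 and mt-Co3, and mt-Nd5 and mt-Nd6 overlap on opposite strands from base 13552 to 13565. Letters come from the GRCm38 genome with GENCODE M21 gene models, forward strand, and capitals mark the bases that belong to both genes.
mt-Atp8 and mt-Atp6, chrM:7907-7989: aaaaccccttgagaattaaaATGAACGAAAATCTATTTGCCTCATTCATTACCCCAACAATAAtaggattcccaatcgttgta
mt-Nd4l and mt-Nd4, chrM:10147-10193: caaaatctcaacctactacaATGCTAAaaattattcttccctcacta
The first overlap spans 43 bases and opens with the start codon of mt-Atp6. The second spans 7 bases and opens with the start codon of mt-Nd4.

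The member with the highest level, in CPM and per kilobase, was mt-Co1 (ENSMUSG00000064351, chrM:5328-6872, forward strand), which encodes the subunit that binds oxygen. It had 19737, 18207 and 22495 CPM in the methylphenidate lineage, against 21835, 18129 and 18944 CPM in the saline lineage. The third methylphenidate library and the first saline library were the highest of their groups, and the groups overlapped (log2 fold change 0.037 ± 0.099 SE, edgeR adjusted p = 0.96). The other catalytic core genes of complex IV had the same highest and lowest library within each lineage, although their order across the 6 libraries differed. For mt-Co2, which encodes the subunit that accepts electrons from cytochrome c, there were 4037, 3624 and 5123 CPM in the methylphenidate lineage, against 4669, 3893 and 4264 CPM in the saline lineage (log2 fold change -0.0048 ± 0.12 SE, edgeR adjusted p = 0.997). For mt-Co3 there were 4216, 3734 and 4568 CPM in the methylphenidate lineage, against 4632, 3675 and 3819 CPM in the saline lineage (log2 fold change 0.046 ± 0.10 SE, edgeR adjusted p = 0.951).

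Complex III has a single mitochondrial subunit, cytochrome b. Its gene mt-Cytb (ENSMUSG00000064370, chrM:14145-15288, forward strand) had 6635, 6097 and 8064 CPM in the methylphenidate lineage, against 7508, 6335 and 6438 CPM in the saline lineage (log2 fold change 0.036 ± 0.11 SE, edgeR adjusted p = 0.966). The groups overlapped, with replicate 3 of the methylphenidate lineage highest of all 6.

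The membrane core of complex I is built by the 7 mt-Nd genes. The gene mt-Nd1, whose protein borders the ubiquinone site, had 6192, 5839 and 8296 CPM in the methylphenidate lineage, against 7844, 6706 and 6504 CPM in the saline lineage (log2 fold change -0.051 ± 0.13 SE, edgeR adjusted p = 0.959). Its neighbour mt-Nd2 had 4264, 3734 and 5439 CPM in the methylphenidate lineage, against 5439.9, 4459 and 4333 CPM in the saline lineage (log2 fold change -0.083 ± 0.14 SE, edgeR adjusted p = 0.934). In both, replicate 3 of the methylphenidate lineage and replicate 1 of the saline lineage exceeded the other 4 libraries. The antiporter-like subunit gene mt-Nd4 had 5939, 5471 and 7169 CPM in the methylphenidate lineage, against 6847, 5558 and 5815 CPM in the saline lineage (log2 fold change 0.028 ± 0.11 SE, edgeR adjusted p = 0.974). The antiporter-like subunit gene mt-Nd5 had 4241, 4200.3 and 5614 CPM in the methylphenidate lineage, against 5441, 4287 and 4352 CPM in the saline lineage (log2 fold change -0.0026 ± 0.13 SE, edgeR adjusted p = 0.999). The fold changes of both were smaller than their standard errors. The short gene mt-Nd4l had 633, 594 and 803 CPM in the methylphenidate lineage, against 781, 604 and 663 CPM in the saline lineage (log2 fold change -0.014 ± 0.12 SE, edgeR adjusted p = 0.989). The low gene mt-Nd3 had 380.5, 309 and 436 CPM in the methylphenidate lineage, against 346, 294 and 409 CPM in the saline lineage (log2 fold change 0.10 ± 0.14 SE, edgeR adjusted p = 0.911). In the saline lineage mt-Nd3 was highest in replicate 3, and it was the only one of the 13 whose highest saline library was not replicate 1. The remaining complex I gene, mt-Nd6 (ENSMUSG00000064368, chrM:13552-14070, reverse strand), is the only member read from the other strand of the circle. It had 1059, 1001 and 1364 CPM in the methylphenidate lineage, against 1308, 1069 and 1068 CPM in the saline lineage (log2 fold change -0.0088 ± 0.12 SE, edgeR adjusted p = 0.993). The library kit keeps strand, but whether the counting used it is not stated, so reads of mt-Nd6 and of transcripts opposite to it cannot be told apart.

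The mitochondrial genes of complex V lie on 1 shared messenger RNA. The gene mt-Atp6, which encodes the subunit that forms the proton path beside the rotating ring, had 4756, 4285 and 5214 CPM in the methylphenidate lineage, against 5356, 4469.8 and 4527 CPM in the saline lineage (log2 fold change -0.0099 ± 0.096 SE, edgeR adjusted p = 0.991). The gene mt-Atp8 had 770.3, 717 and 858 CPM in the methylphenidate lineage, against 842, 711 and 724 CPM in the saline lineage (log2 fold change 0.043 ± 0.089 SE, edgeR adjusted p = 0.949). Both had the same highest library in each group as mt-Co1.

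Per kilobase of full exon length, the mitochondrial genes spanned a wide range. This scale does not give equal levels to mt-Atp8 and mt-Atp6, which share 1 messenger RNA, so it is not a level per transcript. The shortest genes were mt-Atp8 (204 bases), mt-Nd4l (297 bases) and mt-Nd3 (348 bases), and the effect of short length on their levels was not tested. The level of mt-Co1 was 13040.0 ± 1407 CPM per kilobase in the methylphenidate lineage and 12710.0 ± 1261 in the saline lineage (SD, n = 3 each). That of mt-Nd3 was 1078 ± 184 CPM per kilobase in the methylphenidate lineage and 1004 ± 165 in the saline lineage. Next above mt-Nd3 came mt-Nd6, mt-Nd4l and mt-Nd5. The level of mt-Nd6 was 2199 ± 376 CPM per kilobase in the methylphenidate lineage and 2213 ± 266 in the saline lineage, that of mt-Nd4l 2278 ± 374 CPM per kilobase in the methylphenidate lineage and 2299 ± 302 in the saline lineage, and that of mt-Nd5 2569 ± 441 CPM per kilobase in the methylphenidate lineage and 2573 ± 356 in the saline lineage. The mean ± SD ranges of neighbours among these 3 overlapped. The level of mt-Atp8 was 3833 ± 349 CPM per kilobase in the methylphenidate lineage and 3721 ± 355 in the saline lineage. That of mt-Atp6, on the same messenger RNA, was 6978 ± 682 CPM per kilobase in the methylphenidate lineage and 7025 ± 728 in the saline lineage. The levels of mt-Nd4 and mt-Nd2 overlapped, with mt-Nd4 at 4494 ± 637 CPM per kilobase in the methylphenidate lineage and 4407 ± 495 in the saline lineage and mt-Nd2 at 4315 ± 841 CPM per kilobase in the methylphenidate lineage and 4570.0 ± 584 in the saline lineage. Above them stood mt-Co3, at 5322 ± 534 CPM per kilobase in the methylphenidate lineage and 5156 ± 658 in the saline lineage. Then came mt-Cytb, at 6059 ± 889 CPM per kilobase in the methylphenidate lineage and 5909 ± 568 in the saline lineage. The level of mt-Co2 was 6230.0 ± 1132 CPM per kilobase in the methylphenidate lineage and 6250.0 ± 568 in the saline lineage, and these ranges overlapped those of mt-Cytb. The level of mt-Nd1 was 7080.0 ± 1388 CPM per kilobase in the methylphenidate lineage and 7333 ± 755 in the saline lineage. It was next below mt-Co1 in the order, and its mean ± SD range overlapped that of mt-Atp6. These spreads lie between libraries, in which the genes rise and fall together. Genes were not compared within single libraries, so an overlap does not show that their levels are equal.

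This order holds for counts of the genes' own rows, since 7 of the 13 have near-identical rows that hold many counts and are described further on. Whether those counts are further reads or the same reads entered in both rows is not stated. In the second case the sums below count such reads more than once. With those rows added, an alternative chosen after seeing the data, mt-Atp6 stood at 14075 ± 1439 CPM per kilobase in the methylphenidate lineage and 14232 ± 1486 in the saline lineage. Likewise mt-Co2 stood at 12389 ± 2202 CPM per kilobase in the methylphenidate lineage and 12295 ± 973 in the saline lineage, and mt-Co3 stood at 10646 ± 1066 CPM per kilobase in the methylphenidate lineage and 10428 ± 1251 in the saline lineage. All 3 then stood above mt-Nd1. The level of mt-Co1 with its rows added was 14776 ± 1559 CPM per kilobase in the methylphenidate lineage and 14407 ± 1425 in the saline lineage. The mean ± SD range of mt-Atp6 overlapped that of mt-Co1, again across libraries and not within them. Among the low genes, mt-Nd3 stood at 2288 ± 373 CPM per kilobase in the methylphenidate lineage and 2132 ± 325 in the saline lineage, level with mt-Nd6, and mt-Nd4l stood at 4574 ± 750.1 CPM per kilobase in the methylphenidate lineage and 4619.6 ± 603 in the saline lineage, above mt-Nd5. The rank of these genes among the 13 therefore depends on how shared reads are counted.

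**Figure D2:**
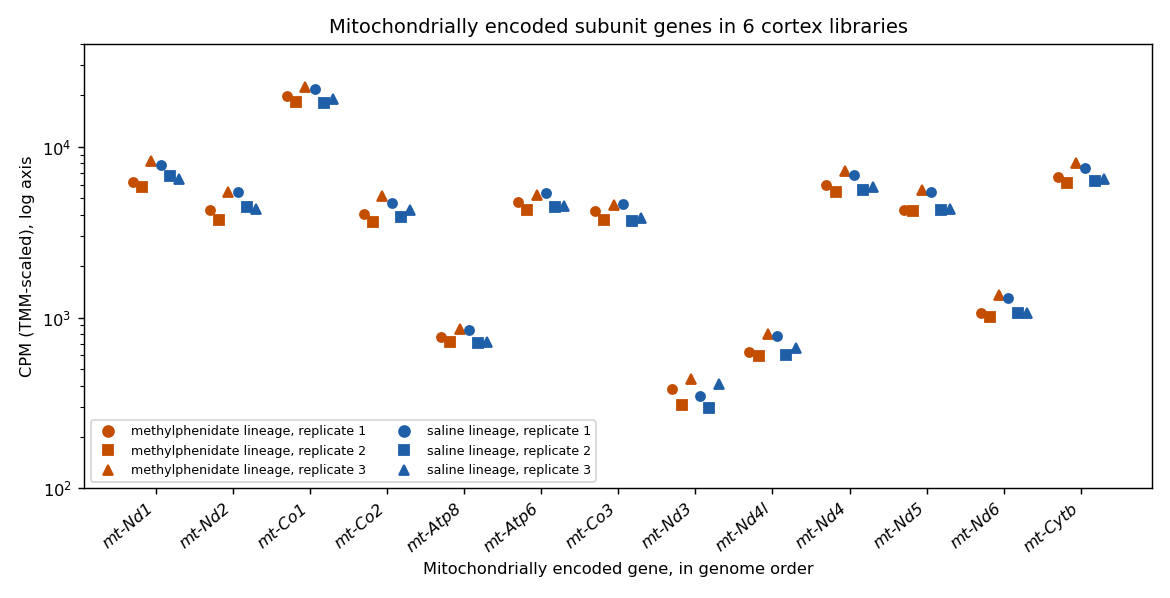
Expression in CPM (TMM-scaled, log axis) of the 13 mitochondrially encoded members in genome order, 1 point per library, with the methylphenidate lineage to the left of the saline lineage for each gene. Replicate 3 of the methylphenidate lineage was highest of its group in 13 of 13 genes, and replicate 1 of the saline lineage in 12 of 13.

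Mitochondrial messages varied together from library to library within both lineages. Replicate 3 of the methylphenidate lineage was the highest of its group, and replicate 2 the lowest, for 13 of 13 genes, with replicate 3 at 1.196 to 1.457 times the level of replicate 2. In the saline lineage, replicate 1 was highest for 12 of 13 and replicate 2 lowest for 10, with replicate 1 at 1.17 to 1.29 times the level of replicate 2. For 12 of the 13 genes those high libraries, 1 from each lineage, exceeded the other 4. The 13 genes share their libraries and their precursor RNAs, so this order is a description of 6 libraries.

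The same high libraries had the lowest choroid plexus markers of their groups, and also the lowest level of Rn18s-rs5, a row for 18S ribosomal RNA, which is cytoplasmic and carries no poly(A) tail. Rn18s-rs5 had 6157, 3101 and 1923 CPM in the methylphenidate lineage, against 1323, 2086 and 2511 CPM in the saline lineage. The choroid plexus values were those given above for replicate 3 of the methylphenidate lineage and replicate 1 of the saline lineage. Both libraries were also the highest of their groups in the summed markers of cortical neurons and striatal neurons given above, of skeletal or cardiac muscle, of astrocytes and of microglia. Summed astrocyte markers were 1212, 1142 and 1340.3 CPM in the methylphenidate lineage and 1213, 1042 and 1169.6 CPM in the saline lineage. Summed microglial markers were 304, 300.5 and 384 CPM in the methylphenidate lineage and 327, 312 and 302 CPM in the saline lineage. For the lists of interneurons, oligodendrocytes, vessel cells and red blood cells, replicate 3 of the methylphenidate lineage lay between the others of its group and replicate 1 of the saline lineage was the highest of its group. The part of these markers and of 18S RNA in the mitochondrial levels was not tested.

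The nuclear members were steadier. Their summed level was 8902, 8588 and 9067 CPM in the methylphenidate lineage, against 8800.0, 8915 and 9084 CPM in the saline lineage, and the highest library was 1.06 times the lowest. The summed level of the mitochondrial members was 62858, 57812 and 75443 CPM in the methylphenidate lineage, against 72848, 60187 and 61862 CPM in the saline lineage, with the highest library at 1.31 times the lowest. The median coefficient of variation within a lineage was 6.08% in the methylphenidate lineage and 5.09% in the saline lineage for nuclear members. It was 16.4% in the methylphenidate lineage and 11.2% in the saline lineage for mitochondrial members. All 6 libraries lay within 1.2-fold for 46 of 86 nuclear members and for 0 of 13 mitochondrial members.

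As a share of all counts, the mitochondrial members took 6.34, 5.85 and 7.44% in the methylphenidate lineage, against 7.10, 6.05 and 6.23% in the saline lineage. The nuclear members took 0.898, 0.868 and 0.894% in the methylphenidate lineage, against 0.858, 0.896 and 0.914% in the saline lineage. The ratio of mitochondrial to nuclear member counts was 7.06, 6.73 and 8.32 in the methylphenidate lineage, against 8.28, 6.75 and 6.81 in the saline lineage. On the log2 scale it averaged 2.88 ± 0.16 in the methylphenidate lineage and 2.86 ± 0.17 in the saline lineage (SD, n = 3 each). The difference of 0.018 between the means was smaller than either SD, and 1 library of each lineage stood at 8.32 and 8.28 while the other 4 lay between 6.73 and 7.06.

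The ratio of summed counts of the genomes differed from complex to complex. These sums run over genes unequal in number and length, and they leave out the near-identical rows described further on. The ratios therefore compare libraries within a complex better than they compare complexes. Within complex IV the mitochondrial genes had 13.98, 13.84 and 15.79 times the counts of the nuclear genes in the methylphenidate lineage, against 16.6, 13.7 and 13.6 times in the saline lineage. Within complex I the ratios were 9.96, 9.53 and 12.4 in the methylphenidate lineage, against 12.4, 9.93 and 9.77 in the saline lineage. Within complex III they were 6.95, 6.67 and 8.42 in the methylphenidate lineage, against 8.17, 6.59 and 6.70 in the saline lineage. Complex V had the lowest ratios of the 4 complexes built from both genomes, 1.79, 1.66 and 1.93 in the methylphenidate lineage, against 1.99, 1.64 and 1.65 in the saline lineage. In each of the 4 the lineages overlapped.

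**Figure D3:**
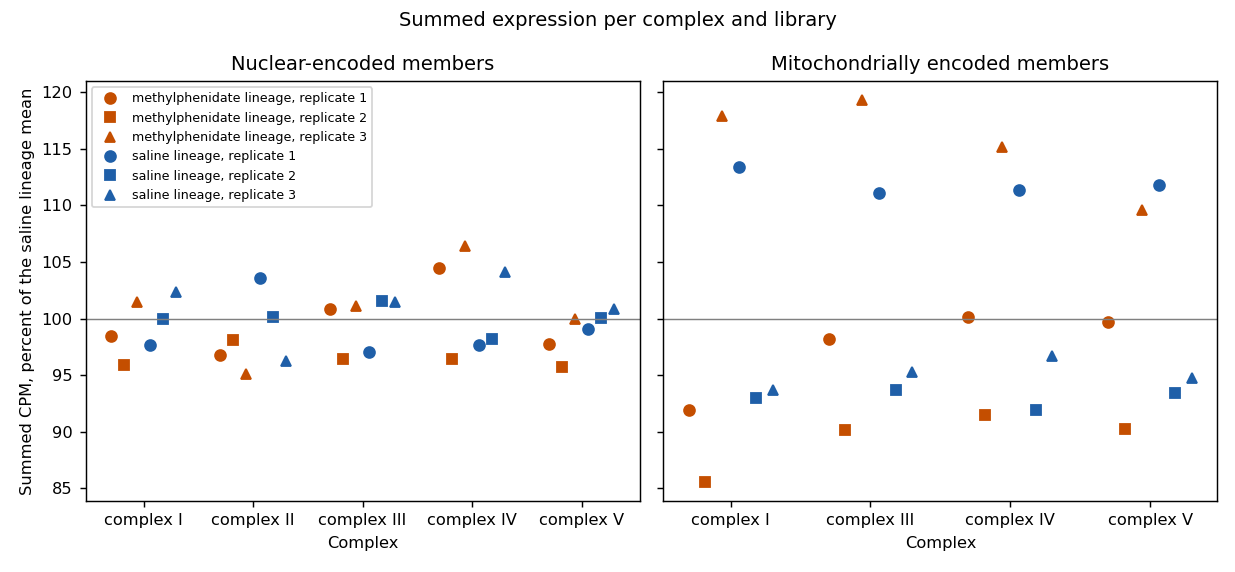
Summed CPM of the nuclear members (left) and mitochondrial members (right) of each complex in each library, as a percentage of the mean of the 3 saline libraries, with the methylphenidate lineage to the left of the saline lineage. Replicate 3 of the methylphenidate lineage and replicate 1 of the saline lineage stand above the other 4 libraries in each mitochondrial sum.

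Complex I was measured through 38 nuclear members. Of these 20 lay above and 18 below 0 on the log2 scale, with a median of 0.0028, and 0 of 38 passed the test. The split ranged from 15 above and 23 below (median -0.019, without replicate 3 of the methylphenidate lineage) to 24 above and 14 below (median 0.030, without replicate 3 of the saline lineage). Their summed level was 2279.6, 2219 and 2348 CPM in the methylphenidate lineage and 2261, 2313 and 2369.8 CPM in the saline lineage. The 7 core subunits that hold the flavin and the iron-sulfur clusters had 2 above and 5 below 0 (median -0.075). The other 31 genes, counted as accessory, had 18 above and 13 below (median 0.0072), or 15 above and 16 below without replicate 3 of the methylphenidate lineage. These 31 genes are not all distinct subunits. Ndufb4c is identical to Ndufb4 over 387 coding bases, so that sequence was counted more than once. Ndufb1, Ndufb4c and Ndufs6b, named after their values were seen, had no coding transcript in GENCODE M21. Ndufs1, which encodes the largest core subunit, had 123, 124 and 117 CPM in the methylphenidate lineage, against 129, 141 and 129.7 CPM in the saline lineage (log2 fold change -0.13 ± 0.065 SE, edgeR adjusted p = 0.685). All 3 methylphenidate libraries were below the saline libraries for Ndufs1, and the difference did not pass the threshold.

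Ndufs4 (ENSMUSG00000021764, chr13:114287795-114388258, reverse strand) encodes an accessory subunit needed for a stable NADH-oxidising arm, and its loss in mice gives a Leigh-like encephalopathy. It had 39.5, 38.8 and 43.04 CPM in the methylphenidate lineage, against 45.6, 44.7 and 47.99 CPM in the saline lineage. The lineages did not overlap, and the log2 fold change of -0.19 (SE 0.081, edgeR unadjusted p = 0.0423) had an adjusted p of 0.643. Ndufb9, an accessory subunit of the membrane arm also among the highest by CPM, had 125, 113 and 118 CPM in the methylphenidate lineage, against 118, 111 and 125 CPM in the saline lineage (log2 fold change 0.005 ± 0.07 SE, edgeR adjusted p = 0.993). Among genes named after their values were seen, Ndufa10 (log2 fold change -0.11) and Ndufa6 (-0.12) also had every methylphenidate library below the saline libraries, and Ndufb4 (0.13) had every one above. The identical row Ndufb4c had 8.74 to 14.2% of the counts of Ndufb4, and these rows were not added together.

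Complex II, which is encoded wholly in the nucleus and also serves the citric acid cycle, had 4 of 4 members below 0, with a median of -0.025, and 2 of 4 under upper-quartile scaling or unscaled total counts. None of the 4 passed the test. Without replicate 1 of the saline lineage 3 of the 4 were above 0. Sdha (ENSMUSG00000021577, chr13:74322254-74350280, reverse strand), the flavoprotein that oxidises succinate, had 337, 346 and 337 CPM in the methylphenidate lineage, against 369, 362 and 342 CPM in the saline lineage (log2 fold change -0.07 ± 0.058 SE, edgeR adjusted p = 0.842). Replicate 3 of the saline lineage lay inside the range of the methylphenidate libraries for Sdha, which made the groups overlap. Sdhb, the iron-sulfur subunit, had 97.9, 101 and 103 CPM in the methylphenidate lineage, against 103, 103 and 96.1 CPM in the saline lineage (log2 fold change -0.0055 ± 0.063 SE, edgeR adjusted p = 0.992). Sdhc, 1 of the membrane anchors, had 84.5, 84.5 and 75.3 CPM in the methylphenidate lineage, against 89.9, 79.5 and 82.5 CPM in the saline lineage (log2 fold change -0.044 ± 0.077 SE, edgeR adjusted p = 0.939). Sdhd, the other anchor, named to complete the complex after its values were seen, stood at -0.0061 ± 0.071 (SE) on the log2 scale. The summed level of the complex was 585, 593 and 575 CPM in the methylphenidate lineage and 626, 605 and 582 CPM in the saline lineage.

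Complex III had 9 nuclear members, 4 above and 5 below 0, with a median of -0.054, and 0 of 9 passed the test. Without replicate 2 of the methylphenidate lineage 5 were above and 4 below 0 (median 0.0017), and the median was -0.018 without replicate 3 of the methylphenidate lineage and -0.019 without replicate 2 of the saline lineage. Uqcrc1, a core protein on the matrix side, had 191, 185 and 198 CPM in the methylphenidate lineage, against 195, 213 and 204 CPM in the saline lineage (log2 fold change -0.092 ± 0.061 SE, edgeR adjusted p = 0.792). Its partner Uqcrc2 had 159.5, 164 and 153 CPM in the methylphenidate lineage, against 163, 175 and 159 CPM in the saline lineage (log2 fold change -0.059 ± 0.064 SE, edgeR adjusted p = 0.884). Cyc1 (ENSMUSG00000022551, chr15:76343523-76346260, forward strand), cytochrome c1, which hands electrons to cytochrome c, had 132, 130.2 and 133 CPM in the methylphenidate lineage, against 124, 126 and 126 CPM in the saline lineage. Its lineages did not overlap, with every methylphenidate library above every saline library, and the log2 fold change was 0.072 (SE 0.057, edgeR adjusted p = 0.83). Uqcrq, a small subunit beside cytochrome b, had 98.9, 94.01 and 105 CPM in the methylphenidate lineage, against 82.6, 86.2 and 96.1 CPM in the saline lineage (log2 fold change 0.17 ± 0.078 SE, edgeR adjusted p = 0.672). For Uqcrq the third saline library exceeded the second methylphenidate library.

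Complex IV had 19 nuclear members, of which 18 were tested, 10 above and 8 below 0, with a median of 0.021, and 0 of 18 passed the test. Without replicate 1 of the saline lineage 8 were above and 10 below 0 (median -0.010). The median was 0.066 without replicate 3 of the saline lineage, and 0.034 and 0.043 without replicates 1 and 2 of the methylphenidate lineage. Cox5b (ENSMUSG00000061518, chr1:36691449-36693681, forward strand), the zinc-binding subunit that faces the matrix, had the smallest p of all members. It had 104, 108 and 105 CPM in the methylphenidate lineage, against 93.2, 87.6 and 99.7 CPM in the saline lineage. The lineages did not overlap, and the log2 fold change of 0.18 (SE 0.068, edgeR unadjusted p = 0.0274) had an adjusted p of 0.606. The nuclear genes of the complex with the highest levels, in CPM and per kilobase, were Cox4i1, Cox8a and Cox6a1. Cox4i1, whose protein is the largest nuclear subunit, had 384, 368 and 424 CPM in the methylphenidate lineage, against 370.0, 387 and 399 CPM in the saline lineage (log2 fold change 0.024 ± 0.069 SE, edgeR adjusted p = 0.964). Cox8a had 282, 249 and 293 CPM in the methylphenidate lineage, against 258, 255 and 266 CPM in the saline lineage (log2 fold change 0.082 ± 0.071 SE, edgeR adjusted p = 0.859). Cox6a1 had 278, 228 and 258 CPM in the methylphenidate lineage, against 233, 214 and 247 CPM in the saline lineage (log2 fold change 0.14 ± 0.085 SE, edgeR adjusted p = 0.765). The lineages overlapped for each of these 3 genes.

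Complex V had 17 nuclear members, 4 above and 13 below 0, with a median of -0.051, and 0 of 17 passed the test. The number below 0 ranged from 9 to 14 of 17 when single libraries were left out, with 10 without replicate 2 of the methylphenidate lineage and 9 without replicate 3 of the saline lineage. Atp5b (ENSMUSG00000025393, chr10:128083273-128090391, forward strand), the catalytic beta subunit and the nuclear member with the highest CPM, had 893, 876 and 899.7 CPM in the methylphenidate lineage, against 892, 934 and 879 CPM in the saline lineage (log2 fold change -0.019 ± 0.058 SE, edgeR adjusted p = 0.967). Its partner Atp5a1, the alpha subunit, had 645, 696 and 703 CPM in the methylphenidate lineage, against 713, 722 and 683 CPM in the saline lineage (log2 fold change -0.051 ± 0.062 SE, edgeR adjusted p = 0.896). Atp5d, a subunit of the central stalk, had 168, 151 and 167 CPM in the methylphenidate lineage, against 149, 139.7 and 154 CPM in the saline lineage (log2 fold change 0.13 ± 0.068 SE, edgeR adjusted p = 0.713). The lineages overlapped for all 3 genes.

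The peripheral stalk holds the catalytic head of complex V against the turning rotor, and 4 of its 4 measured genes were below 0 (median -0.083), or 3 of 4 under upper-quartile scaling or unscaled total counts. None of the 4 passed the threshold. Atp5pb (ENSMUSG00000000563, chr3:105942698-105960099, reverse strand), subunit b, had 183, 186 and 185 CPM in the methylphenidate lineage, against 195, 198 and 198 CPM in the saline lineage (log2 fold change -0.093 ± 0.055 SE, edgeR adjusted p = 0.755). Its lineages did not overlap. The other genes of the stalk were Atp5h (-0.086), whose lineages did not overlap either, Atp5o (-0.079) and Atp5j (-0.0049). Of the central stalk, Atp5c1, the gamma subunit (-0.098), was also lower in every methylphenidate library than in every saline library. These 4 genes other than Atp5pb were named after their values were seen.

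The rotor ring of complex V is made of subunit c, which 3 genes encode as the same mature protein. Atp5g3 had 162, 162 and 166 CPM in the methylphenidate lineage, against 168, 173 and 168 CPM in the saline lineage (log2 fold change -0.055 ± 0.056 SE, edgeR adjusted p = 0.879), and its lineages did not overlap. Atp5g1 had 83.5, 94.5 and 100.3 CPM in the methylphenidate lineage, against 90.3, 95.7 and 102 CPM in the saline lineage (log2 fold change -0.049 ± 0.083 SE, edgeR adjusted p = 0.938). Atp5g2 had 55.5, 56.7 and 60.2 CPM in the methylphenidate lineage, against 53.9, 52.1 and 57.4 CPM in the saline lineage (log2 fold change 0.078 ± 0.075 SE, edgeR adjusted p = 0.87). Atp5e, the epsilon subunit, was named after its values were seen, since 1 library stood apart. It had 71.9, 60.1 and 51.1 CPM in the methylphenidate lineage, against 63.1, 30.3 and 71.8 CPM in the saline lineage (log2 fold change 0.15 ± 0.26 SE, edgeR adjusted p = 0.939), so that replicate 2 of the saline lineage alone lay well below the other 5 libraries.

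Complex IV has several subunits encoded by a widely expressed gene and a tissue-restricted gene, which is typical of heart, skeletal muscle, lung or testis depending on the pair. In these cortices the widely expressed forms made up nearly all of each pair in both lineages. Cox8b, the heart and muscle form of subunit 8, was the 1 member under the filter on low counts, with 8, 11 and 4 counts in the methylphenidate lineage, against 4, 23 and 5 counts in the saline lineage. It made up 0.117, 0.155 and 0.0562% of the Cox8a and Cox8b counts in the methylphenidate lineage, against 0.0590, 0.351 and 0.0777% in the saline lineage. Of these 6 libraries, replicate 2 of the saline lineage alone exceeded 0.3%.

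Cox6a2, the heart and muscle form of subunit 6a, made up 0.909 ± 0.449% of the Cox6a1 and Cox6a2 counts in the methylphenidate lineage and 1.06 ± 0.287% in the saline lineage (SD, n = 3 each). Its level was 1.91, 3.31 and 1.61 CPM in the methylphenidate lineage and 2.02, 1.99 and 3.48 CPM in the saline lineage (log2 fold change -0.13 ± 0.36 SE, edgeR adjusted p = 0.963). Cox7a1, the heart and muscle form of subunit 7a, made up 0.897 ± 0.241% of the Cox7a1 and Cox7a2 counts in the methylphenidate lineage and 0.902 ± 0.318% in the saline lineage. Its level was 0.705, 1.16 and 0.866 CPM in the methylphenidate lineage and 0.648, 0.821 and 1.32 CPM in the saline lineage (log2 fold change -0.024 ± 0.42 SE, edgeR adjusted p = 0.995). Summed markers of skeletal or cardiac muscle lay between 11.5 and 12.8 CPM in the methylphenidate lineage and between 12.0 and 13.9 CPM in the saline lineage.

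Cox4i2, the lung form of subunit 4, made up 0.397 ± 0.106% of its pair in the methylphenidate lineage and 0.381 ± 0.106% in the saline lineage. Its level was 1.12, 1.86 and 1.69 CPM in the methylphenidate lineage and 1.68, 1.68 and 1.04 CPM in the saline lineage (log2 fold change 0.09 ± 0.35 SE, edgeR adjusted p = 0.974). Cox6b2 and Cox7b2 are testis forms. Cox6b2 made up 1.36 ± 0.331% of its pair in the methylphenidate lineage and 1.15 ± 0.0814% in the saline lineage, at 1.45, 2.22 and 1.94 CPM in the methylphenidate lineage and 1.45, 1.56 and 1.66 CPM in the saline lineage (log2 fold change 0.27 ± 0.30 SE, edgeR adjusted p = 0.887). Cox7b2 made up 0.416 ± 0.214% of its pair in the methylphenidate lineage and 0.322 ± 0.215% in the saline lineage, at 0.539, 0.492 and 0.165 CPM in the methylphenidate lineage and 0.114, 0.313 and 0.538 CPM in the saline lineage (log2 fold change 0.32 ± 0.68 SE, edgeR adjusted p = 0.949). Ndufa4l2, a hypoxia-inducible relative of Ndufa4, made up 1.59 ± 0.415% of its pair in the methylphenidate lineage and 1.25 ± 0.102% in the saline lineage, at 2.86, 1.55 and 2.14 CPM in the methylphenidate lineage and 1.52, 1.96 and 1.74 CPM in the saline lineage (log2 fold change 0.32 ± 0.31 SE, edgeR adjusted p = 0.87). In each of these isoform pairs the lineages overlapped, and the differences were smaller than the larger SD.

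The widely expressed partners varied little. Cox6b1 had 143, 131 and 136 CPM in the methylphenidate lineage, against 135, 130.2 and 135 CPM in the saline lineage (log2 fold change 0.033 ± 0.061 SE, edgeR adjusted p = 0.943). Cox7a2 had 98.5, 98.1 and 106 CPM in the methylphenidate lineage, against 93.6, 108 and 103 CPM in the saline lineage (log2 fold change -0.014 ± 0.074 SE, edgeR adjusted p = 0.98), and Cox7b had 99.4, 90.7 and 97.4 CPM in the methylphenidate lineage, against 95.6, 105 and 97.8 CPM in the saline lineage (log2 fold change -0.052 ± 0.069 SE, edgeR adjusted p = 0.906). Cox7a2l, whose protein joins complexes III and IV into supercomplexes, had 79.7, 76.99 and 86.3 CPM in the methylphenidate lineage, against 84.01, 79.4 and 76.4 CPM in the saline lineage (log2 fold change 0.018 ± 0.072 SE, edgeR adjusted p = 0.974). Ndufa4 had 141, 131 and 131 CPM in the methylphenidate lineage, against 129, 141 and 141 CPM in the saline lineage (log2 fold change -0.028 ± 0.066 SE, edgeR adjusted p = 0.953). In each of these 5 genes the lineages overlapped and the fold change was smaller than its standard error.

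**Figure D4:**
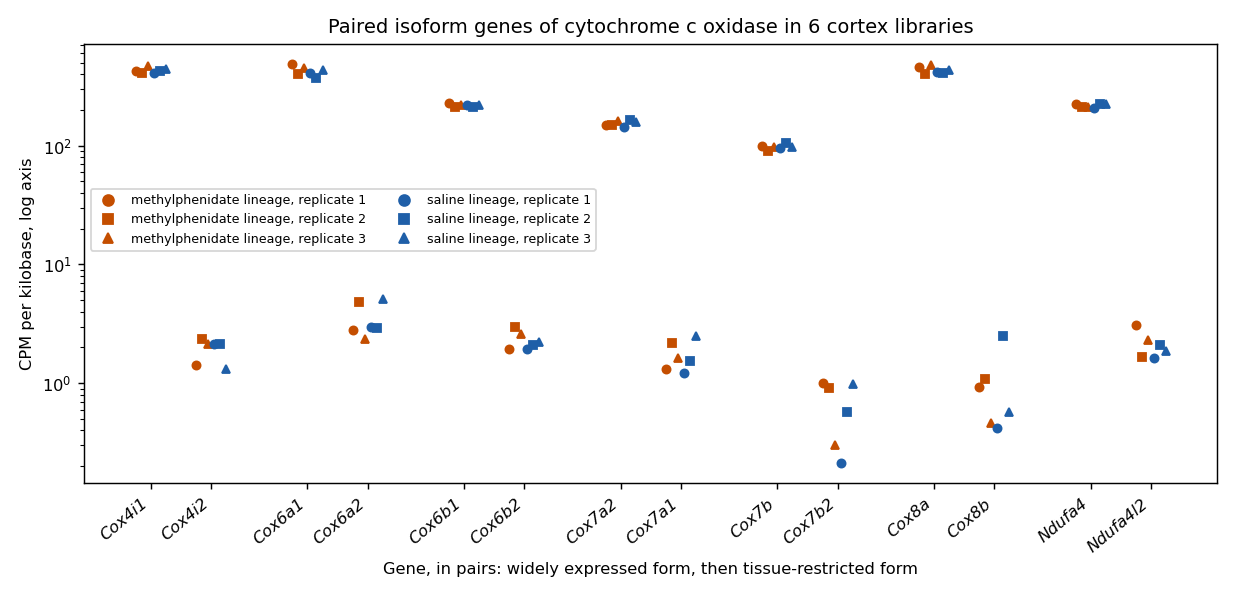
Level in CPM per kilobase (log axis) of paired isoform genes of cytochrome c oxidase, 1 point per library, with the widely expressed gene left of its tissue-restricted partner and the methylphenidate lineage left of the saline lineage for each gene. The widely expressed genes lie near 100 or above, the restricted genes below 6, and the lineages overlap in each gene.

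Per kilobase, Cox8a stood at 444 ± 37.1 CPM per kilobase in the methylphenidate lineage and 419.8 ± 9.26 in the saline lineage (SD, n = 3 each). Cox6a1 stood at 446 ± 43.6 CPM per kilobase in the methylphenidate lineage and 405 ± 29.8 in the saline lineage, and Cox4i1 at 432 ± 31.5 CPM per kilobase in the methylphenidate lineage and 425 ± 16.3 in the saline lineage. For comparison, Atp5b stood at 464 ± 6.33 CPM per kilobase in the methylphenidate lineage and 470.4 ± 15.1 in the saline lineage. Cox8b stood at 0.818 ± 0.321 CPM per kilobase in the methylphenidate lineage and 1.17 ± 1.16 in the saline lineage. The promoters of Cox6a1 and Cox8a are shown beside that of Cox8b because, within complex IV, Cox6a1 and Cox8a were among the highest nuclear members per kilobase and Cox8b was among the lowest. They are RefSeq sequences on GRCm38.p6, 250 bases before to 50 after the gene start, read on the reverse strand of the chromosome. In Cox6a1 capitals mark GCATGCGC, a letter string of the NRF1 motif, joined with a second match on the opposite strand that overlaps it and starts earlier, and CTTCCGG, the reverse complement of CCGGAAG, a letter string of the ETS family to which GABPA belongs. In Cox8a capitals mark CTTCCGG, and in Cox8b they mark TATAAA.
Cox6a1, chr5:115348909-115349208: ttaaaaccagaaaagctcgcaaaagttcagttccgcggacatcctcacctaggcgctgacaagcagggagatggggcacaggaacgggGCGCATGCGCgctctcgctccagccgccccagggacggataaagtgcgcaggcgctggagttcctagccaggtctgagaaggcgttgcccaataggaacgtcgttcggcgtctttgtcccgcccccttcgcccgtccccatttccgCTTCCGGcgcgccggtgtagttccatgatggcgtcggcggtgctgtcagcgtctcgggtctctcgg
Cox8a, chr19:7217567-7217866: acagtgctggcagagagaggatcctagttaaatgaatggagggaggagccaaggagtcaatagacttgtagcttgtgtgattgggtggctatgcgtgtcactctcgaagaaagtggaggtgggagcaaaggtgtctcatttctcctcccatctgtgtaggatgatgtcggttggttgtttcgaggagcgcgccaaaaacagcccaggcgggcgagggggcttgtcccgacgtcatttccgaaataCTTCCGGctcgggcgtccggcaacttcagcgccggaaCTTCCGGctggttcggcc
Cox8b, chr7:140900397-140900696: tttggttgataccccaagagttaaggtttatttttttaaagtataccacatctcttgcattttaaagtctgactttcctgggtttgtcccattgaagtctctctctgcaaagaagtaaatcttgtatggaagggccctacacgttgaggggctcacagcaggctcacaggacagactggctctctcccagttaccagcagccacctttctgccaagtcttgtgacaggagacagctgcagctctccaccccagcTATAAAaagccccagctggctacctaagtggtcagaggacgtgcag

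NRF1 and GABPA are transcription factors known for activating nuclear genes of the respiratory chain, and YY1 for repressing or activating many housekeeping genes. Of 74 member promoters in the RefSeq table, from 69 genes, 13.5% held GCATGCGC, against 2.71% of all 32851 promoters of the same length, on either strand. CCGGAAG was in 23.0% of member promoters and 8.86% of all. AAGATGGC, a letter string of the YY1 motif, was in 13.5% of member promoters and 2.75% of all, and TATAAA in 12.2% and 13.6%. The 10 genes with GCATGCGC, named for the match alone, were Atp5g2, Atp5k, Atp5l, Cox6a1, Ndufa11, Ndufa6, Ndufa8, Sdhb, Uqcr11 and Uqcrc1, whose log2 fold changes lay between -0.16 (Atp5k) and 0.14 (Cox6a1). A match describes these letters in this window only.

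Several members share their sequence with other rows of the table, which bears on how far their counts can be trusted. Of the 97 members with a coding transcript in GENCODE M21, 32 had at least 1 other row with 95% identity or more over at least 100 bases, 23 of them nuclear and 9 mitochondrial. Ndufb1, Ndufb4c and Ndufs6b had no coding transcript there and were not searched for copies of their own. Gm10925 matched mt-Atp6 at 100% over 678 coding bases and had 100 to 103% of its counts in each library. Gm28661 matched mt-Co2 at 100% and had 94.5 to 99.4% of its counts, and Gm28437 matched mt-Co3 at 100% and had 99.8 to 107%. Gm10222 matched mt-Nd4l at 100% and had 101% of its counts, and Gm28438 matched mt-Nd3 at 99.7% and had 110 to 115%. Part of mt-Nd4 and of mt-Co1 was matched by Gm28439 (35.3 to 37.1% of the counts) and Gm29216 (12.9 to 13.8%). The 7 members with such rows are uncertain in level, while mt-Nd1, mt-Nd2, mt-Nd5, mt-Nd6, mt-Cytb and mt-Atp8 had either no such row or one with under 0.05% of their counts. For mt-Atp8 this rests on the limit of 100 bases. Its last 43 bases are also the first of mt-Atp6, which Gm10925 matches from its first base. The level of mt-Atp8 is therefore not free of shared sequence.

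Among nuclear members the counts of such rows could move a value. Cox5b and the row Cox5b-ps differ at 3 of 387 coding bases. The stretch from coding base 99 to 129 of Cox5b, on the strand of the coding sequence, is shown because a read lying between the differences cannot be assigned, and the capital marks the 1 base that differs there.
Cox5b, gene at chr1:36691449-36693681, forward strand: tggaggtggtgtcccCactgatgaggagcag
Cox5b-ps, gene at chr13:21501029-21501418, reverse strand: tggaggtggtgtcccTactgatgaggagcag
Cox5b-ps had 460, 347 and 463 counts in the methylphenidate lineage, against 421, 524 and 504 counts in the saline lineage. With the 2 rows added together, an alternative chosen after seeing the data, the log2 fold change of Cox5b was 0.12 (SE 0.066, edgeR unadjusted p = 0.095, adjusted p = 0.737).

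Ndufa12, an accessory subunit of complex I picked for its copy once its counts were known, had 841, 1109 and 949 counts in the methylphenidate lineage, against 642, 1006 and 1032 counts in the saline lineage. Its near-identical row Ndufa12-ps had more counts than the gene in 4 of 6 libraries, with 1190, 938 and 1222 in the methylphenidate lineage, against 1439, 978 and 1284 in the saline lineage. In replicate 1 of the saline lineage the gene was lowest and the copy highest. With that row added, the log2 fold change of Ndufa12 was -0.041 (SE 0.105), against 0.086 (SE 0.18) without it. Atp5g1 had the row Gm10039 at 99.8% identity, with 830, 394 and 409 counts in the methylphenidate lineage, against 413, 374 and 417 counts in the saline lineage, and replicate 1 of the methylphenidate lineage alone stood high. With that row added, the log2 fold change of Atp5g1 was 0.034 (SE 0.070), against -0.049 without it. Cox7a2l had the row Gm6969, at 100% identity over 201 bases, with 32.5 to 47.1% of its counts, and its log2 fold change was -0.029 (SE 0.061) with that row added.

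**Figure D5:**
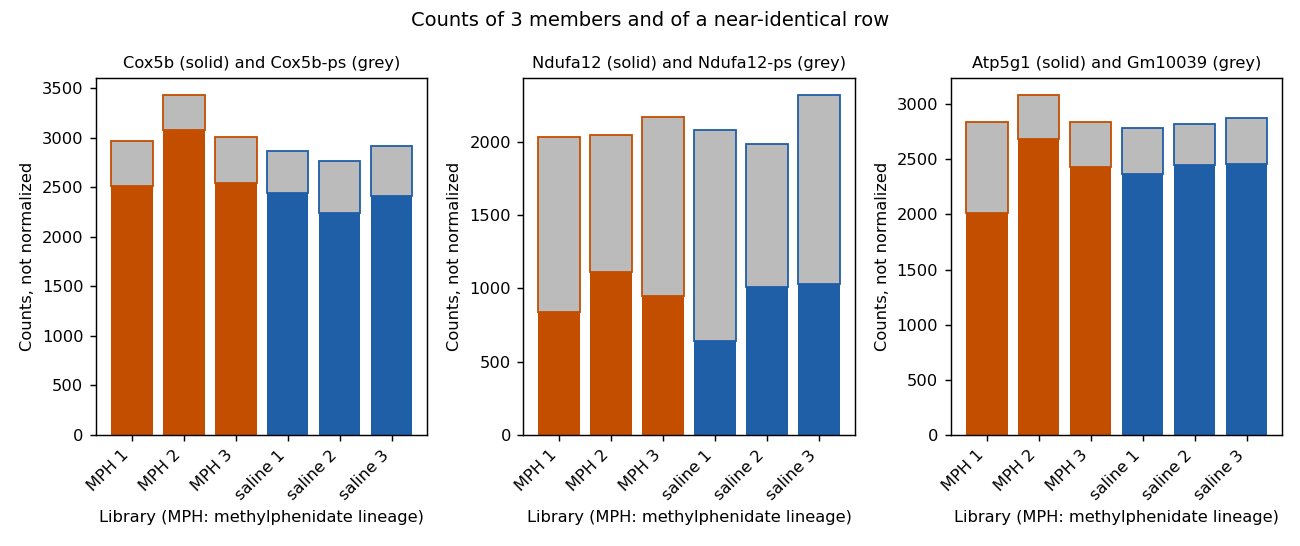
Counts (not normalized) of Cox5b, Ndufa12 and Atp5g1 (solid bars) with the counts of a near-identical row stacked on top (grey) in each library, with the methylphenidate lineage (MPH) left of the saline lineage. The division between gene and copy shifts from library to library more than their sum does for Ndufa12.

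Genes that build, feed or express the respiratory chain were described from lists of known members. Of 57 assembly factors, 52 were tested, and 0 passed the threshold, with 16 above and 36 below 0 (median -0.038), and 23 above and 29 below without replicate 1 of the methylphenidate lineage. Pet100, a complex IV assembly factor, had 9.33, 8.27 and 10.2 CPM in the methylphenidate lineage, against 11.3, 12.4 and 12.96 CPM in the saline lineage (log2 fold change -0.40 ± 0.14 SE, edgeR adjusted p = 0.569). Ndufaf6, needed for early complex I assembly, had 4.395, 4.01 and 5.11 CPM in the methylphenidate lineage, against 5.26, 7.23 and 5.92 CPM in the saline lineage (log2 fold change -0.45 ± 0.20 SE, edgeR adjusted p = 0.669). Nubpl, which delivers iron-sulfur clusters to complex I, had 5.06, 3.94 and 3.298 CPM in the methylphenidate lineage, against 5.37, 5.28 and 6.17 CPM in the saline lineage (log2 fold change -0.45 ± 0.22 SE, edgeR adjusted p = 0.683). All 3 had every methylphenidate library below every saline library, and 6 of the 52 did (11.5%, against 6.51% of all genes). None of the 52 had every methylphenidate library above, against 6.97% of all genes.

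Of 30 genes of mitochondrial DNA maintenance, transcription and RNA processing, 29 were tested and 0 passed, with 10 above and 19 below 0 (median -0.053). The median moved to -0.104 without replicate 1 and -0.015 without replicate 3 of the methylphenidate lineage, and to -0.020 without replicate 2 of the saline lineage. Mterf1b, a homologue of a mitochondrial transcription terminator, had 1.08, 1.55 and 1.897 CPM in the methylphenidate lineage, against 3.05, 1.99 and 4.68 CPM in the saline lineage (log2 fold change -1.10 ± 0.37 SE, edgeR adjusted p = 0.555). Mtpap, the mitochondrial poly(A) polymerase, had 20.6, 21.8 and 19.8 CPM in the methylphenidate lineage, against 23.6, 25.5 and 23.1 CPM in the saline lineage (log2 fold change -0.21 ± 0.094 SE, edgeR adjusted p = 0.658). Fastkd5, which helps process mitochondrial precursor RNA, had 6.26, 6.79 and 5.61 CPM in the methylphenidate lineage, against 7.89, 8.095 and 7.74 CPM in the saline lineage (log2 fold change -0.35 ± 0.16 SE, edgeR adjusted p = 0.672). The lineages did not overlap for these 3 genes, which were chosen for the smallest p. Of the 29, 3 had every methylphenidate library below every saline library (10.3%, against 6.51% of all genes). In the other direction 1 did (3.45%, against 6.97% of all genes).

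Of 78 mitochondrial ribosomal protein genes, 78 were tested and 0 passed, with 29 above and 49 below 0 (median -0.031), or 32 above and 46 below (median -0.015) without replicate 2 of the methylphenidate lineage and 33 above and 45 below (median -0.019) without replicate 3 of the saline lineage. Mrpl53, of the large subunit, had 5.97, 7.07 and 4.33 CPM in the methylphenidate lineage, against 19.3, 15.6 and 7.74 CPM in the saline lineage (log2 fold change -1.29 ± 0.31 SE, edgeR adjusted p = 0.305). Replicates 1 and 2 of the saline lineage stood above the other 4 libraries for Mrpl53, and DESeq2 gave it an adjusted p of 0.0012. Mrps25, of the small subunit, had 56.9, 53.00 and 52.2 CPM in the methylphenidate lineage, against 74.2, 55.3 and 65.6 CPM in the saline lineage (log2 fold change -0.27 ± 0.11 SE, edgeR adjusted p = 0.615). Mrpl14, of the large subunit, had 11.3, 10.9 and 11.6 CPM in the methylphenidate lineage, against 12.2, 14.04 and 15.4 CPM in the saline lineage (log2 fold change -0.30 ± 0.13 SE, edgeR adjusted p = 0.655). The lineages overlapped for Mrps25 and did not for Mrpl14.

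The citric acid cycle supplies NADH and succinate to the chain. Its 18 listed genes were all tested and 0 passed, with 4 above and 14 below 0 (median -0.092). Idh3a, the catalytic subunit of the NAD-dependent isocitrate dehydrogenase, had 166, 177 and 166 CPM in the methylphenidate lineage, against 190.4, 197 and 191 CPM in the saline lineage (log2 fold change -0.18 ± 0.059 SE, edgeR adjusted p = 0.534). Its lineages did not overlap. Idh3g, a regulatory subunit of that enzyme, had 90.4, 80.4 and 84.6 CPM in the methylphenidate lineage, against 100.1, 89.8 and 92.3 CPM in the saline lineage (log2 fold change -0.14 ± 0.073 SE, edgeR adjusted p = 0.714). Sucla2, the ADP-forming succinyl-CoA synthetase subunit, had 124, 124 and 117 CPM in the methylphenidate lineage, against 129.7, 146 and 130.4 CPM in the saline lineage (log2 fold change -0.15 ± 0.069 SE, edgeR adjusted p = 0.665). The lineages overlapped for Idh3g and did not for Sucla2.

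Of 16 glycolytic genes 0 passed, with 5 above and 11 below 0 (median -0.047, or -0.020 without replicate 1 of the methylphenidate lineage and -0.016 without replicate 2 of the saline lineage). Ldhb, a lactate dehydrogenase subunit, had 382, 372 and 387 CPM in the methylphenidate lineage, against 414, 443 and 393 CPM in the saline lineage (log2 fold change -0.13 ± 0.064 SE, edgeR adjusted p = 0.687). The fold changes of Pgk1, phosphoglycerate kinase, and Pfkp, the platelet form of phosphofructokinase, were -0.12 (SE 0.064) and -0.16 (SE 0.13). Of 12 carriers and electron carriers 11 were tested and 0 passed, with 4 above and 7 below 0 (median -0.030), or 6 above and 5 below without replicate 2 of the saline lineage. Cycs, cytochrome c itself, had 125, 125 and 116 CPM in the methylphenidate lineage, against 124, 132 and 129.8 CPM in the saline lineage (log2 fold change -0.077 ± 0.063 SE, edgeR adjusted p = 0.84). The outer-membrane channels Vdac2 and Vdac3 stood at -0.13 ± 0.073 and -0.07 ± 0.069 (SE) on the log2 scale.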

How the data were processed

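Poly(A) RNA from frozen cerebral cortex was sequenced as directional libraries, per the labels. Per the submitters' processing notes, the tools were StringTie 2.2.1, HISAT2 2.2.1, fastp 0.23.4 and bcl2fastq 2.19, and the build was GRCm39. No source states the annotation release, the strand setting or how StringTie output became counts. The authors deposited raw whole-number counts, 1 row per Ensembl identifier with its symbol and 1 column per library. Rows with near-identical sequence may share reads in such counts.

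Groups came from the labels, 3 libraries each. The test was that of edgeR 4.0.16 in R 4.3.3 (filterByExpr defaults, TMM scaling, quasi-likelihood test, group as the only term, two-sided, Benjamini-Hochberg adjustment over all 18327 genes tested, threshold 0.05). Log2 fold changes are methylphenidate over saline. Alternatives included DESeq2 1.42.0 and limma-voom (limma 3.58.1). Replicates differed by 13.03 to 19.93 times sampling noise (chi-square over degrees of freedom), so none duplicated another. Named genes were all mitochondrial members, the 3 highest by CPM and the 2 of smallest p among nuclear members of each complex, tissue isoforms, and up to 3 genes of smallest p in each other list. The gene values of 1 nuclear member of complex I that this rule names are not reported here. The members and lists were chosen with earlier results of these data known. Motif spellings other than those given were tried.

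Near-identical rows were found with BLAST+ 2.17.0 on GENCODE M21 transcripts (GRCm38), and lengths, loci and printed sequences are GRCm38 too, whereas the counts are on GRCm39. CPM per kilobase used merged exons of coding transcripts.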

Additional observations from a re-analysis of the deposited data

How the results depend on the processing

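No oxidative phosphorylation gene passed the threshold in any of the 16 alternatives, and the smallest adjusted p among members ranged from 0.564 to 0.924. Medians of nuclear and mitochondrial members moved by less than the spread between replicates (SD 0.034 for nuclear and 0.186 for mitochondrial members). Leaving out 1 of 3 libraries can hardly move a median by more than that spread, so this does not show stability. With single libraries left out, the nuclear median lay between -0.0267 and 0.0175, and the mitochondrial median between -0.0918 and 0.0986. The count of all genes past the threshold was 5, and it was 10 with total counts, 3 with no filter, 151 with DESeq2 and 2 to 26 when single libraries were left out (26 without replicate 1, 12 without replicate 2 and 2 without replicate 3 of the methylphenidate lineage, and 3 without replicate 2 and 8 without replicate 3 of the saline lineage). With a replicate block the count was 2, with 0 members, and the deviations of same-numbered libraries correlated at -0.044, 0.091 and -0.024. The labels do not pair these libraries, and such values cannot settle whether they share more than a number.

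Without the 7 mitochondrial members that have a near-identical row, the median log2 ratio of mitochondrial to nuclear counts was 1.38 in the methylphenidate lineage and 1.40 in the saline lineage, and the mitochondrial share of counts was 2.34% in the methylphenidate lineage and 2.37% in the saline lineage. With mitochondrial rows out of the denominator, the nuclear share was 0.965% in the methylphenidate lineage and 0.960% in the saline lineage. The construction of these alternatives moves the values.

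Of 64 genes named by the rule, 38 kept their sign throughout. Genes named outside the rule, such as Ndufa12, are not among the 64. Log2 fold changes that turned were 0.0036 (mt-Nd5), 0.0014 (mt-Co2) and 0.0002 (Sdhb) with upper-quartile scaling, 0.0072 (mt-Nd5), 0.0006 (mt-Nd6), 0.0038 (mt-Co2), 0.0004 (mt-Atp6) and 0.0043 (Sdhb) with total counts, 0.029 (Cox7a1) with limma-voom, and -0.029 (Cox7a2l) and 0.034 (Atp5g1) with near-identical rows added. The cause was not tested. Leaving out single libraries turned 26 genes, among them 13 of 13 mitochondrial genes, with mt-Atp6 at -0.083 to 0.078, mt-Atp8 at -0.031 to 0.12, mt-Co1 at -0.051 to 0.12, mt-Co2 at -0.16 to 0.099, mt-Co3 at -0.026 to 0.15, mt-Cytb at -0.088 to 0.12, mt-Nd1 at -0.22 to 0.045, mt-Nd2 at -0.25 to 0.032, mt-Nd3 at -0.021 to 0.23, mt-Nd4 at -0.092 to 0.12, mt-Nd4l at -0.16 to 0.092, mt-Nd5 at -0.15 to 0.12, mt-Nd6 at -0.16 to 0.094, Atp5b at -0.037 to 0.0073, Atp5g1 at -0.11 to 0.021, Cox4i1 at -0.037 to 0.067, Cox4i2 at -0.11 to 0.28, Cox6a2 at -0.50 to 0.18, Cox6b1 at -0.0003 to 0.061, Cox7a1 at -0.24 to 0.31, Cox7a2 at -0.072 to 0.034, Cox7a2l at -0.031 to 0.054, Cox7b2 at -0.085 to 0.89, Ndufb9 at -0.038 to 0.0499, Sdhb at -0.0399 to 0.013 and Sdhc at -0.082 to 0.0076. Counting error limits the genes near the floor, such as Cox7b2 and Cox8b.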

Other observations

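Mitochondrial RNAs that encode no protein were also read, and they were chosen here after their values were seen. The large ribosomal RNA mt-Rnr2 had 2688, 3156 and 4244 CPM in the methylphenidate lineage, against 3931, 3096 and 2987 CPM in the saline lineage. The small ribosomal RNA mt-Rnr1 had 2233, 2295 and 2779 CPM in the methylphenidate lineage, against 2573, 2274 and 2286 CPM in the saline lineage. The highest library of each lineage was the one with the highest messenger levels. The 4 transfer RNAs mt-Ta, mt-Tn, mt-Tc and mt-Ty, which lie side by side on the strand that also carries mt-Nd6, summed to 74.1, 72.3 and 184 CPM in the methylphenidate lineage, against 173, 116 and 97.0 CPM in the saline lineage, so that the same library of each lineage stood highest.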
